A study of Homo sapiens with 8 samples.

Results

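The E2F transcription factors were represented by 49 of the 22506 listed Ago2 peaks, in 8 of the 6326 listed genes. They were taken as every row of the deposited peak table whose gene symbol is E2F followed by a digit, which gave E2F1 to E2F8 on 9 RefSeq transcripts. E2F3 was listed under 2 of these transcripts. The material was 293S, a subline of the human embryonic kidney line HEK293, which was made with adenovirus DNA. A single culture was kept for 60 minutes in 20 µg/mL emetine, which is an alkaloid and stops ribosomes from elongating, and the control culture was left untreated. From each culture 3 aliquots went to CLIP (ultraviolet crosslinking and immunoprecipitation of the RNA bound to Ago2), each with an antibody from another maker (Abnova, Santa Cruz or Sigma), and 1 aliquot went to RNA-seq. With 1 culture per treatment, no p-value here measures the spread between cultures. The spread between the 3 libraries of a treatment includes the difference between antibodies. Each antibody was used once per treatment, but the library reads used here could not be assigned to antibodies, so the main fits are unpaired. A fit with a block by library number is given in the closing section.

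E2F proteins bind the promoters of genes needed for DNA replication and cell division. E2F1, E2F2 and E2F3 mainly activate these genes and are held in check by the retinoblastoma protein RB. E2F4 and E2F5 mainly repress them together with the RB relatives p107 and p130, E2F6 represses independently of RB, and E2F7 and E2F8 are atypical repressors that bind DNA without a DP partner. HEK293 cells carry the adenovirus E1A protein, which binds RB and its relatives. Ago2 is the Argonaute protein that carries microRNAs to their target transcripts, and E2F messages are among the known targets of the miR-17 family, whose genes E2F proteins in turn activate.

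The microRNAs of the miR-17 family are shown first because they are the best known regulators of E2F1, E2F2 and E2F3. Their mature sequences from RefSeq (GRCh38.p14) are written 5′ to 3′ with the seed, bases 2 to 8, in capitals.
hsa-miR-17-5p: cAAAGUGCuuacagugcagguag
hsa-miR-20a-5p: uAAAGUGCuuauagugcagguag
hsa-miR-93-5p: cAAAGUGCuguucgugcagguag
hsa-miR-106b-5p: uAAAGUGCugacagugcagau
The seed is the same in each of them and pairs with GCACTTT in a transcript. The transcript strand of the 3′ UTRs was searched for these 7 letters in GENCODE v29 transcripts of GRCh38. E2F1 held 2 matches, E2F2 held 3 and E2F3 held 1, while E2F4, E2F6, E2F7 and E2F8 held 0, and E2F5 held 1 that is not printed. Each match is given in 30 bases of transcript, with the match in capitals and positions counted from the first base of the 3′ UTR.
E2F1 from base 387: gggggggctctaactGCACTTTcggccctt
E2F1 from base 980: cccaccctccaatctGCACTTTgatttgct
E2F2 from base 905: tcatggctgtggcggGCACTTTtcctcaga
E2F2 from base 1519: aggctcagctggacaGCACTTTttagaaaa
E2F2 from base 3283: agaaccttgcctgtgGCACTTTtcgagggt
E2F3 from base 1824: agacagatgacaccaGCACTTTaaactctt
The E2F3 match is followed by an A, the base that usually strengthens a seed site, as is the unprinted match of E2F5; the matches of E2F1 and E2F2 are not. The same 7 letters occur in 21.4% of 19113 human 3′ UTRs, and in 40.4% of those close in length to the 3284 bases of E2F3, 41.9% of those close to the 3450 bases of E2F2 15.9% of those close to the 1049 bases of E2F1 and 8.58% of those close to the 656 bases of E2F5. The peaks are listed in hg19 and the transcripts in GRCh38, so no peak was placed on or off a match.

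The other 8 seed groups searched had matches in 6 of the 3′ UTRs, given here with the share of UTRs of similar length that hold the letters. E2F3 had more than any other: 2 of CAGTATT, paired by the miR-200 seed (32.9%), and 1 each of CACTGCC, paired by miR-34 (24.9%), TGCTGCT, paired by miR-15, miR-16 and miR-424 (38.5%), GTGCAAT, paired by miR-25 and miR-92 (22.2%), and TGTTTAC, paired by miR-30 (29.7%). E2F2 held 2 of CTACCTC, paired by let-7 (18.1%), and 1 of TTTGCAC, paired by miR-19 (25.5%). E2F5 held 1 for let-7 (4.56%) and 1 for miR-34 (9.62%), E2F6 held 1 for let-7 (12.5%), E2F7 held 2 for miR-15, miR-16 and miR-424 (35.2%), and E2F8 held 1 for miR-19 (4.57%). The letters GCACCTT, paired by miR-18, were in none of them. E2F4 held no match to any of the 9 seed groups searched. Matches are letters in a transcript and say nothing here of which microRNA Ago2 carried.

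The E2F peaks were sparse. Of their 900 reads, the emetine libraries 1, 2 and 3 held 43, 215 and 170, and the control libraries 1, 2 and 3 held 64, 163 and 245. Numbers were given to the libraries in the order of what a read is worth, from the largest down, 8.86, 3.00 and 2.81 normalised units in the emetine libraries, against 8.002, 2.82 and 2.43 in the control libraries, and no antibody could be assigned to them. Over all peaks the recovered reads ranged between 40093 and 104479 per emetine library and between 39149 and 117352 per control library. The shallowest library of each treatment stood apart in composition, with 45.5% (emetine) and 42.7% (control) of its reads in noncoding exons, against 6.15% and 13.5% in emetine libraries 2 and 3 and 6.27% and 13.05% in control libraries 2 and 3. A median E2F peak held 15 reads over 6 libraries, as did the median of all peaks. Of the 49 peaks, 24 (48.98%) had reads in 1 or 2 libraries only, against 54.7% of all peaks, and 1 library held over 75% of the normalised signal of 18 (36.7%), against 46.0% of all peaks. No emetine reads fell in 7 peaks (14.3%, against 20.2% of all peaks) and no control reads in another 7 (14.3%, against 17.7%). The peaks were 3 to 75 bases wide with a median of 32, and 4 of them overlapped the peak before and can share reads with it.

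**Figure D1:**
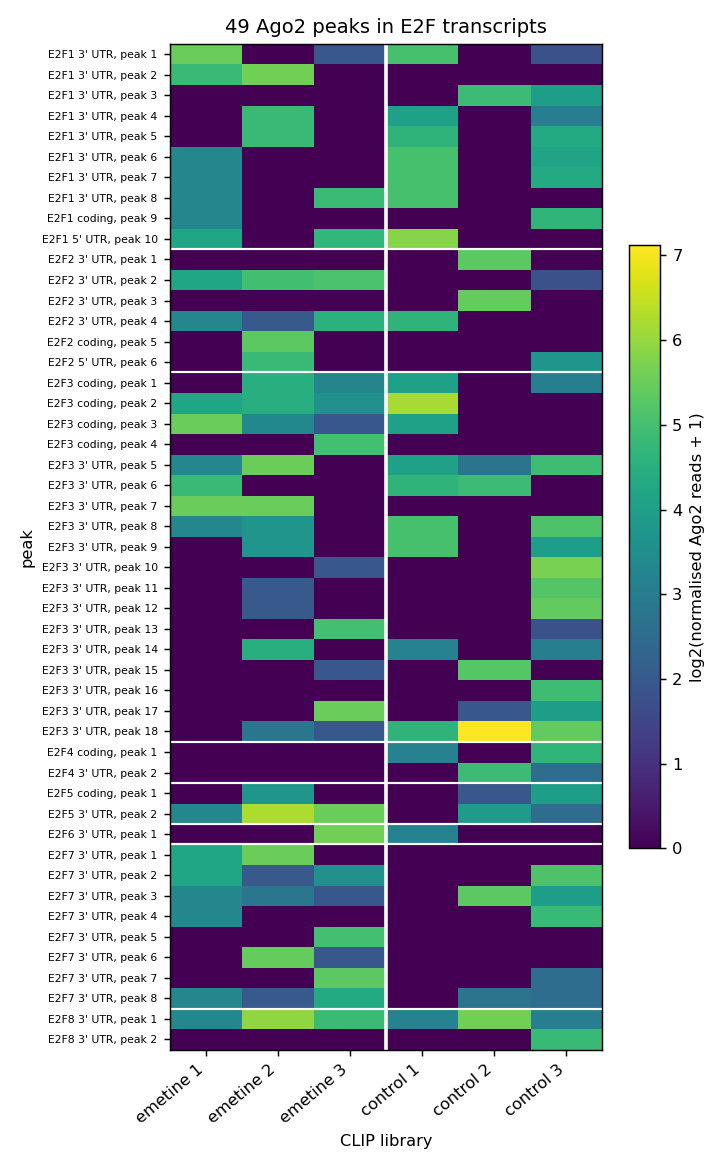
Each row is 1 of the 49 E2F peaks, ordered by gene and by position on the chromosome, and each column 1 CLIP library, emetine left and control right; colour is log2(normalised Ago2 reads + 1). Most rows are bright in 1 to 3 libraries, and the brightest cell is the last E2F3 peak in control library 2, with 138 normalised reads.

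Most E2F peaks lay in 3′ UTRs, the region where microRNA sites are best known. The 39 peaks there were 79.6% of the E2F peaks, against 57.6% of all peaks. A further 8 lay in coding sequence and 2 in 5′ UTRs, at E2F1 and E2F2. In the limma fit of log2(normalised reads + 1), emetine gave higher values at 23 E2F peaks and lower values at 26. Their median log2 change was -0.42, against 0.01 over all 22489 peaks with recovered reads. The standard error of a single peak was large, with a median of 2.06. By ratios of read totals, where a total of 0 was replaced by 3 reads per treatment, 26 E2F peaks were higher and 23 lower and the median log2 ratio was 0.42, against -0.07 over all peaks. The sign of the median therefore differed between the scale that weights libraries equally and the scale that pools their reads. No direction is given for the E2F peaks as a group.

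No E2F peak passed the limma test after Benjamini-Hochberg adjustment at 0.05, and neither did any other of the 22489 peaks (0.0%). At an unadjusted p under 0.05 there were 2 E2F peaks, 1 in each direction, against 1.06% of all peaks. With limma-voom on the same reads 0 E2F peaks passed and 2 had such an unadjusted p, against 2.45% of all peaks. Summed over the peaks of each gene, 0 of 8 E2F genes passed, as did 0 of 6314 genes (0.0%), and 0 E2F genes had an unadjusted p under 0.05, against 1.87% of all genes. All emetine libraries were above all control libraries in 3.01% of all genes and in 0 E2F genes. The smallest adjusted p of an E2F gene was 0.799.

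Among the activators, E2F3 carried most of the Ago2 signal. It had 18 peaks on chromosome 6 and 40.4% of all E2F reads. Its gene sum was 151, 198 and 138 normalised reads in the emetine libraries, against 240, 212 and 308 in the control libraries. Every emetine library was below every control library. Such a gap occurred in 2.19% of all genes and in 2 of 8 E2F genes, E2F3 and E2F4. The peaks of E2F4 hold control reads only and were listed through them. The log2 change was -0.64 ± 0.74 (SE; limma p = 0.389, adjusted p = 0.799), and the ratio of read totals was 0.632 (exact binomial 95% interval 0.507 to 0.786, which covers counting error only).

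The 14 peaks in the 3′ UTR of E2F3 and the 4 in its coding sequence differed in the direction of their summed reads. The 3′ UTR held 10, 49 and 30 emetine reads by library, against 17, 75 and 124 in the control libraries. The ratio of totals was 0.458 (95% interval 0.354 to 0.589), and 12 of the 14 peaks were lower and 2 higher on the log2 scale, which weights libraries equally (range -4.14 to 3.68). By read totals 9 were lower and 5 higher. In the coding sequence there were 7, 17 and 19 reads with emetine, against 13, 0 and 3 in the control. The ratio of totals was 2.99 (95% interval 1.65 to 5.68), and the 4 peaks were higher on both scales. The coding reads thus spread over all emetine libraries, and in the control lay mostly in library 1. One of the 4 coding peaks, from 20483059, had 11 emetine reads and 0 control reads. It was listed through emetine reads alone, so the coding ratio was partly set by the listing.

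The share of E2F3 reads in coding peaks was 41.2%, 25.8% and 38.8% in the emetine libraries, against 43.3%, 0% and 2.36% in the control libraries. The means were 35.2% ± 8.30 with emetine and 15.2% ± 24.4 in the control (SD, n = 3 each). The 0% of control library 2 rests on 75 reads, which allow a share of up to 4.0%. The ranges overlapped through control library 1. An exact two-sided permutation test without pairing gave p = 0.4, where 0.1 is the smallest that 3 against 3 libraries allow. This comparison was chosen after the values were seen. The 38.8% of emetine library 3 includes the 11 reads of the coding peak from 20483059, which was listed through emetine reads alone. Over all peaks the same share averaged 36.0% ± 1.62 with emetine and 31.3% ± 3.49 in the control (exact permutation p = 0.2, SD, n = 3 each). The coding ratio of E2F3 was 13.7 without control library 1, 1.80 without control library 2 and 1.98 without control library 3.

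Of the coding peaks, 3 were listed under NM_001949 and lay within the same stretch, from 20402490 to 20402760 on chromosome 6, and 1 was listed under NM_001243076, with 11 reads in emetine library 3 and 0 in every other library. NM_001949 encodes the long form E2F3a, with 1395 coding bases against 1002 for NM_001243076 in the GENCODE annotation. The peak at chr6:20402583-20402632 had 2, 7 and 4 reads with emetine, against 9, 0 and 0 in the control. The peak at chr6:20402686-20402760 had 5, 3 and 1 reads with emetine, against 2, 0 and 0 in the control. The 3 peaks had log2 changes between 0.19 and 2.22 with standard errors between 1.92 and 2.02.

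The strongest single difference in E2F3 was at the distal end of its peaks. At chr6:20493448-20493483 (hg19, 3′ UTR) the emetine libraries had 0, 2 and 1 reads, against 3, 49 and 17 in the control libraries, or 0, 6.01 and 2.81 against 24.0, 138 and 41.3 normalised reads. Every emetine library was below every control library, a pattern seen in 1.43% of all peaks and in 1 E2F peak. Its log2 change of -4.14 ± 1.81 (SE) had an unadjusted p under 0.05 and a limma adjusted p of 0.784. The ratio of totals was 0.0483 (95% interval 0.00973 to 0.147). Without control library 2, which held 49 of its 72 reads, the ratio was 0.1004. Without this peak, the other 13 peaks of the 3′ UTR had 86 emetine and 147 control reads, a ratio of 0.650 (95% interval 0.492 to 0.854). That remainder rested on control library 3: without it the ratio was 1.28 (95% interval 0.873 to 1.92).

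**Figure D2:**
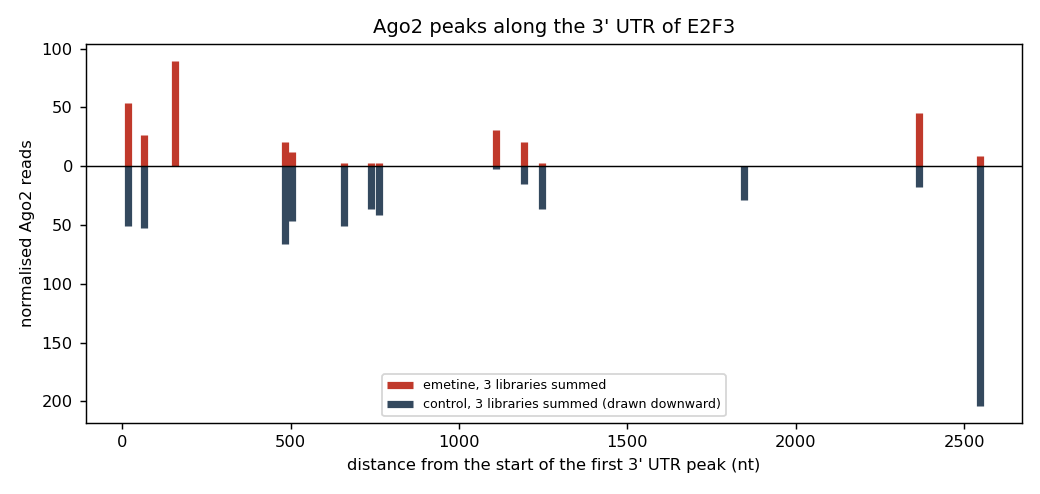
Bars give the normalised Ago2 reads of the 14 peaks in the 3′ UTR of E2F3, summed over 3 libraries, upward for emetine and downward for the control, against the distance in nucleotides from the start of the first of them. The last peak has 138 normalised reads in control library 2 alone, and by these summed reads 9 of the 14 peaks are lower with emetine and 5 higher.

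The first peak of the 3′ UTR of E2F3 was close to even by read totals. At chr6:20490919-20490953 there were 1, 15 and 0 reads with emetine, against 2, 2 and 12 in the control. One library led in each treatment and the ranges overlapped. Its ratio of totals was 1.11 (95% interval 0.520 to 2.37), and 0.119 without emetine library 2. On the log2 scale the change was -0.97 ± 1.85 (SE), and 0.50 without emetine library 3. The third peak of this 3′ UTR, at chr6:20491061-20491087, had 5, 15 and 0 emetine reads and 0 in every control library. With the control total set at 3 reads its ratio was 7.41, and the exact binomial 95% interval on 0 control reads began at 5.49. Further along, 4 peaks took most of their reads from control library 3, with 21, 15, 17 and 12 reads there at those from 20491565, 20491641, 20491666 and 20492753, and at most 1 emetine read each. Those from 20491641 and 20491666 overlap and can share reads. The one from 20492753 had 0 emetine reads and was listed through control reads alone.

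E2F1, the activator best known for inducing both S phase and apoptosis, had 10 peaks on chromosome 20. Its gene sum was 124, 102 and 56.1 normalised reads with emetine, against 224, 28.2 and 104 in the control. The control libraries extended beyond the emetine libraries on both sides. E2F1 as a whole had a log2 change of 0.03 ± 1.04 (SE), and the ratio of totals was 0.933 (95% interval 0.666 to 1.30). Neighbouring peaks of its 3′ UTR went opposite ways: the one at chr20:32263674-32263696 had 3, 16 and 0 emetine reads and 0 control reads, and the one at chr20:32263813-32263847 had 0 emetine reads and 0, 10 and 6 control reads. Each was seen in 2 libraries and was listed through the reads of 1 treatment alone, so its direction was partly set by the listing. The 8 peaks of the 3′ UTR had log2 changes between -2.94 and 3.47, and they summed to 56 emetine and 64 control reads. The coding peak had 1 emetine and 10 control reads and the 5′ UTR peak 11 emetine and 7 control reads. With library totals as the scaling the log2 change of the gene sum was -0.0445.

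E2F2, the third activator, had 6 peaks on chromosome 1. Its gene sum was 26.6, 99.1 and 56.1 normalised reads with emetine, against 24.0, 81.9 and 14.6 in the control, and these ranges overlapped. The log2 change was 0.76 ± 1.38 (SE). The ratio of totals was 1.64 (95% interval 1.07 to 2.54), and it was 4.17 without control library 2 and 1.05 without control library 3. One of its peaks had the highest log2 change of the E2F peaks. The peak at chr1:23834773-23834809 in the 3′ UTR had 2, 10 and 12 reads with emetine, against 0, 0 and 1 in the control. Every emetine library was above every control library, as in 2.55% of all peaks and 1 of 49 E2F peaks. The log2 change of 4.17 ± 1.99 (SE) had an unadjusted p under 0.05 and a limma adjusted p of 0.784. A ratio of totals of 26.7 (95% interval 4.35 to 1097) rests on 1 control read and was 16.1 without control library 2. The other peaks of the 3′ UTR included 2 with reads in control library 2 only, with 14 at the one from 23833553 and 15 at the one from 23834955. The coding peak had 13 reads, all in emetine library 2, and the 5′ UTR peak had 9 emetine and 5 control reads.

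Among the repressors that work with RB relatives, E2F4 and E2F5 differed in sign. E2F4, the main E2F of resting cells, had 2 peaks on chromosome 16 with 0 reads in every emetine library and 1, 10 and 12 in the control libraries. With 0 reads set at 3 over the 3 libraries, its total was 6.90-fold lower with emetine, a ratio of 0.145. The exact binomial 95% interval on 0 emetine reads reached 0.193. The 2 peaks held 11 and 12 reads, and no listed peak had fewer than 11 over the 6 libraries. They were thus listed through control reads alone, so the direction of E2F4 was partly set by the listing. The limma p was 0.0786 (adjusted p = 0.799), on 23 reads in all. One of the peaks, in coding sequence at chr16:67228638-67228640, is listed as 3 bases wide, the narrowest E2F peak. For E2F4 RNA, 92 emetine reads stood against 37 control reads, and the log2 ratio was -0.03 (95% interval -0.60 to 0.56).

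E2F5 had 2 peaks on chromosome 8. Its gene sum was 8.86, 87.1 and 44.9 normalised reads with emetine, against 0, 16.9 and 19.4 in the control. Emetine libraries 2 and 3 were above every control library, and emetine library 1 was within the control range. The log2 change was 2.26 ± 1.91 (SE; limma adjusted p = 0.799), and the ratio of totals was 3.65 (95% interval 1.97 to 7.19). Without control library 1 the log2 change was 0.84, and without emetine library 2 the ratio was 2.31. The 3′ UTR peak at chr8:86126092-86126135 carried this, with 1, 25 and 16 reads with emetine, against 0, 5 and 2 in the control. Its log2 change was 2.87 ± 1.82 (SE; limma adjusted p = 0.784), and its ratio of totals was 6.67 (95% interval 2.97 to 17.6), 14.1 without control library 2. The coding peak of E2F5 had 4 emetine and 7 control reads.

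E2F6, a repressor that works with polycomb proteins, had a single peak at chr2:11585572-11585594 in its 3′ UTR. It had 0, 0 and 17 reads with emetine, against 1, 0 and 0 in the control. Its ratio of totals was 18.9 (95% interval 2.96 to 789), on 1 control read. Its emetine signal was 1 library, and without that library the log2 change was -1.06 in place of 0.81 ± 2.28 (SE).

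The atypical repressors E2F7 and E2F8 limit E2F1 expression and share a role in the endoreplication of liver and placenta, known from mice. E2F7 had 8 peaks on chromosome 12, each in the 3′ UTR, of which 6 were higher and 2 lower with emetine on the log2 scale (range -0.50 to 3.25). Its gene sum was 62.0, 99.1 and 107 normalised reads with emetine, against 0, 45.2 and 84.9 in the control. Control library 3 was above emetine library 1, and control library 1 had no reads in any E2F7 peak. E2F7 had a log2 change of 2.47 ± 1.43 (SE; limma adjusted p = 0.799), and of 0.48 without control library 1. The ratio of totals was 1.70 (95% interval 1.18 to 2.47), and 2.91 without control library 3. The peaks from 77415242, 77416269 and 77416781 had 17, 11 and 15 emetine reads and 0 control reads. They were listed through emetine reads alone, so the direction of E2F7 was partly set by the listing. The peak at chr12:77415555-77415589 had 1, 2 and 1 reads with emetine, against 0, 14 and 6 in the control, and the peak at chr12:77415242-77415275 had 2, 15 and 0 with emetine and 0 in the control.

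E2F8 had 2 peaks on chromosome 11. The one at chr11:19245789-19245823 was the only E2F peak with reads in each of the 6 libraries. It had 1, 20 and 10 reads with emetine, against 1, 17 and 3 in the control, or 8.86, 60.1 and 28.1 against 8.002, 48.0 and 7.28 normalised reads. The ranges overlapped, with a log2 change of 0.75 ± 1.68 (SE) and a ratio of totals of 1.64 (95% interval 0.913 to 3.00). This ratio was 0.995 without emetine library 2, 5.19 without control library 2 and 1.03 without control library 3. The other E2F8 peak had 11 reads, all in control library 3. Summed over both, the gene had a ratio of totals of 1.08 (95% interval 0.635 to 1.82), and its log2 change of 0.06 ± 1.63 (SE) was -0.00569 with library totals as the scaling. Without emetine library 2 the ratio of its totals was 0.653.

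**Figure D3:**
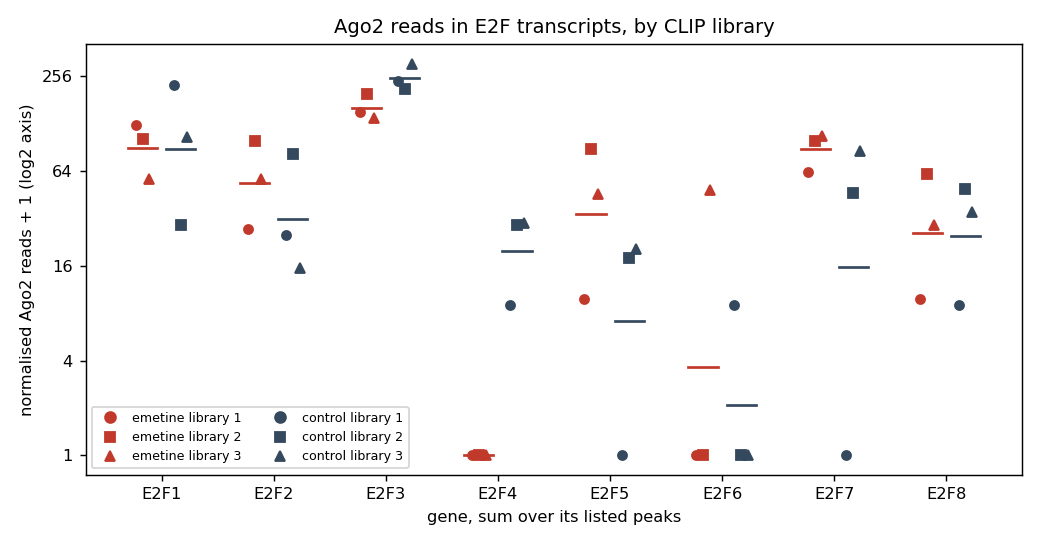
Points give the Ago2 reads of each E2F gene in each CLIP library, as normalised reads + 1 on a log2 axis, with emetine left of the control; the short lines are means of the logarithms over 3 libraries. In E2F3 and E2F4 every emetine library is below every control library, and E2F4 has 0 reads in each emetine library.

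RNA was measured in 1 library per treatment, so its ratios have counting intervals and no replicate check. Of the 8 E2F genes, 3 had a log2 RNA ratio above 0 and 5 below, with a median of -0.09, against 0.01 over 5803 genes with at least 50 RNA reads. With total RNA reads as the scaling E2F4 was above 0, at 0.04. E2F8 had the largest ratio of the family, with 211 emetine reads and 38 control reads, or 1.13 on the log2 scale (95% interval 0.62 to 1.67). E2F6 had 131 emetine and 34 control RNA reads, a log2 ratio of 0.60 (0.05 to 1.19). These 2 genes were above a log2 ratio of 0.5, as were 6.2% of all genes counted.

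E2F1 had 95 emetine and 53 control RNA reads and a log2 ratio of -0.501 (-1.002 to 0.01), and was just below -0.5, as were 5.89% of all genes. With total RNA reads as the scaling it was -0.43. E2F2, with 117 emetine and 65 control RNA reads and a log2 ratio of -0.495 (-0.95 to -0.04), was just inside -0.5. The intervals of E2F3 (-0.15, -0.36 to 0.07), E2F5 (-0.29, -0.66 to 0.09) and E2F7 (0.17, -0.03 to 0.37) held 0. In bulk samples, fewer cells with a transcript and less of it per cell cannot be told apart.

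The Ago2 and RNA differences of these genes were not of 1 size or sign. The E2F8 RNA ratio was 1.13 on the log2 scale, and the Ago2 log2 changes of its 2 peaks were 0.75 and -1.60. In the authors' deposited table, where peak values are taken relative to RNA, these peaks had log2 ratios of -0.37 and -2.72. The E2F2 peak from 23834773 had 4.67 and the E2F3 peak from 20493448 had -4.00 in the authors' deposited table. For E2F3 the Ago2 ratio of totals of 0.632 stood beside a nearly even RNA, and for E2F5 the ratio of 3.65 stood beside an RNA log2 ratio below 0.

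**Figure D4:**
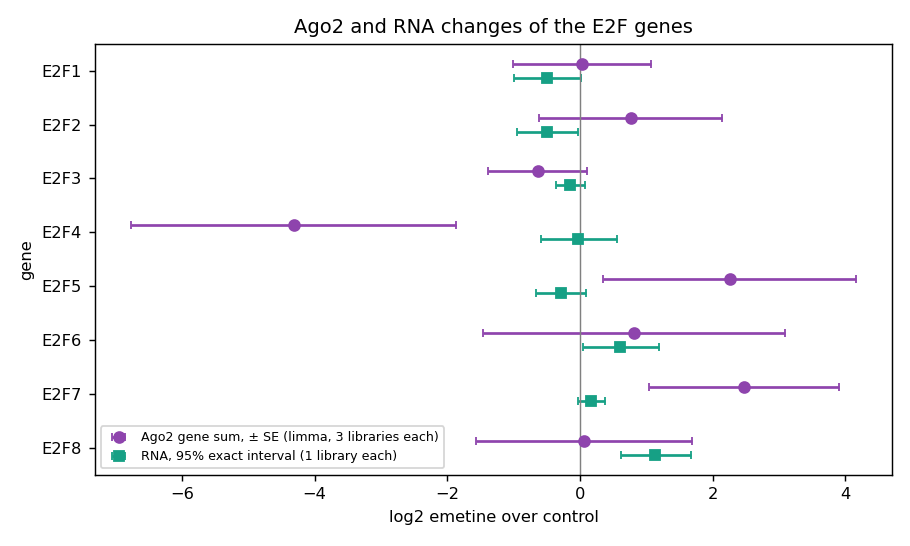
For each E2F gene, the upper circle is the log2 change of its Ago2 gene sum, emetine over control, with its standard error from limma, and the lower square is the log2 ratio of its RNA with an exact binomial 95% interval. E2F8 has the RNA ratio farthest above 0, at 1.13, and the Ago2 value of E2F4 rests on 0 emetine reads and depends on the added constant.

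Per kilobase of transcript, the Ago2 levels of the family followed another order than the RNA levels. With emetine the mean Ago2 level in listed peaks descended in the order E2F1, E2F3, E2F5, E2F7, E2F2, E2F8, E2F6 and E2F4, and in the control in the order E2F3, E2F1, E2F4, E2F8, E2F2, E2F7, E2F5 and E2F6. E2F3 had 34.1 ± 6.72 normalised Ago2 reads per kilobase with emetine and 53.3 ± 10.4 in the control (SD, n = 3 each). E2F1 had 37.6 ± 13.9 with emetine and 47.5 ± 39.4 in the control (SD, n = 3 each). E2F4 had 0 in each emetine library, against 10.4 ± 5.70 in the control (SD, n = 3). E2F5 had 24.8 ± 20.7 with emetine and 6.41 ± 5.59 in the control (SD, n = 3 each). Within each treatment the library ranges of each pair of neighbours in the order overlapped or met at 0. Counts covered only listed peaks, and the lengths are those of the GENCODE transcripts.

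On the RNA scale, per kilobase of transcript, E2F3 had 310 normalised reads per kilobase with emetine and 344 in the control, and E2F7 had 344 with emetine and 305 in the control. E2F1, among the top pair by Ago2 in both treatments, had 95.3 RNA reads per kilobase with emetine and 135 in the control. E2F8 had 150 with emetine and 68.8 in the control. E2F7 had a high RNA level and few Ago2 reads for it: its gene sum per kilobase was 15.6 ± 4.16 with emetine and 7.56 ± 7.40 in the control (SD, n = 3 each). In the authors' deposited table the log2 peak averages relative to RNA ran down to -10.0 in E2F7, and the highest of any E2F peak was -4.17, at E2F8.

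The genes most like E2F3 across the 6 libraries, among 1097 genes with at least 100 reads, were LGALS3BP, PGRMC1 and FAM84B. Pearson's r of log2(gene sum + 1) was 0.92, 0.88 and 0.87, as a description over 6 libraries that share their depth and antibody differences. LGALS3BP had 2, 25 and 9 reads with emetine, against 11, 14 and 63 in the control. E2F1 had an r of 0.24 with E2F3, and E2F7 had -0.31.

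The lists of partners, upstream regulators and S phase targets of E2F proteins could hold no calls, since 0 of 22489 peaks and 0 of 6314 genes passed. Of the RB family and DP partners, 4 of 6 genes had peaks, 13 in all, and emetine values were higher at 7 and lower at 6 (median log2 change 0.42). By gene sums 1 was higher and 3 lower (median -1.12). None of the peaks or genes passed the limma test. RBL2, which encodes p130, had 1, 49 and 0 reads with emetine, against 13, 11 and 2 in the control, and TFDP1, the DP partner DP1, had 9, 25 and 4 with emetine, against 1, 6 and 15 in the control. RB1 had 12 emetine and 31 control reads, and RBL1, which encodes p107, had 0 emetine and 17 control reads. Of the MuvB core and its MYB partner, which act with E2F4 and p130, 6 of 7 genes had 18 peaks, 10 higher and 8 lower (median 0.41; by gene sums 3 higher and 3 lower, median 0.25), and 0 passed. LIN9 had 59 emetine and 8 control reads and MYBL2 had 36 emetine and 64 control reads, while RBBP4 had 55 emetine and 41 control reads and LIN52 had 0 emetine and 12 control reads.

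The G1 regulators upstream of RB were the best covered of these lists, with 184 peaks in 14 of 16 genes, 97 higher and 87 lower (median 0.23; by gene sums 8 higher and 6 lower, median 0.55), and 0 passed. Cyclin D2 (CCND2), which drives phosphorylation of RB, had 90, 286 and 186 reads with emetine, against 66, 366 and 296 in the control, a log2 change of -0.04 ± 0.42 (SE). Its standard error was smaller than that of any E2F gene. CDK6, its kinase, had 149 emetine and 311 control reads, cyclin D1 (CCND1) had 470 emetine and 630 control reads, and the inhibitor CDKN1B had 393 emetine and 267 control reads.

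Among S phase targets of E2F, 21 of 27 genes had 75 peaks, 40 higher and 35 lower (median 0.87; by gene sums 12 higher and 9 lower, median 0.24), and 0 passed after adjustment. At an unadjusted p under 0.05 there were 3 of these genes, against 1.87% of all genes. PCNA, the sliding clamp of DNA polymerase, had 39, 93 and 92 reads with emetine, against 7, 25 and 12 in the control. Every emetine library was above every control library, as in 3.01% of all genes, with a log2 change of 2.56 ± 0.92 (SE; limma adjusted p = 0.799) and an RNA log2 ratio of 0.22 (95% interval 0.06 to 0.38). MCM6, part of the replicative helicase, had 6, 81 and 19 reads with emetine, against 0, 0 and 22 in the control. CHAF1A, a histone chaperone of replication, had 4, 43 and 2 reads with emetine, against 5, 72 and 15 in the control, a log2 change of -1.11 ± 1.33 (SE). RRM1, a subunit of ribonucleotide reductase, had 74 emetine and 35 control reads and a log2 change of 0.12 ± 1.33 (SE).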

How the data were processed

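Ago2 CLIP and RNA-seq libraries of 293S cells with and without emetine were analysed from 1 deposited table. Its rows are peaks with position, region, gene and transcript. Per the file headers, 2 measures were given by the authors as logarithms: a normalised mean over both treatments and a ratio of treated to untreated cells. The base is not stated; the values the authors deposited fit the natural log, and log2 values were obtained by division. The submitters' processing notes name hg19, Bowtie 0.12.8, TopHat and DESeq. No source used here gives the peak caller or the start convention, so positions are as listed.

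The 2 measures give 1 value per treatment. Each such value can be written as the average of ln(1 + reads × factor) in 3 CLIP libraries, less the same term for RNA. Whole reads were recovered on this basis for 22489 of 22506 peaks (99.9%), within 2e-13 on the natural log scale; 17 peaks were left out, none of them E2F. The recovered read numbers are a reconstruction. Depth was at least 11 reads per peak over 6 libraries. A peak with reads in 1 treatment only was thus listed through that treatment alone. RNA totals over listed genes were 3723323 reads with emetine and 1539172 in the control.

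Changes were fitted with limma 3.58.1 (R 4.3.3), with the variance trend, on log2 of normalised reads + 1, with treatment as the sole term, over all peaks or all genes (sums over peaks), with Benjamini-Hochberg adjustment. Summed reads of a treatment were divided by its summed inverse factors to give ratios of totals, with exact binomial 95% intervals that cover counting error only (scipy 1.17.1, Python 3.11.15); figures used matplotlib 3.10.9. The recovery and limma steps were tested on simulated data. Alternatives covered scaling, filters, the added constant, limma-voom, each library left out, overlapping peaks and a block by library number.

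Every E2F gene and peak was accounted for, with values per library for peaks of at least 30 reads and for gene sums; peaks below 30 reads that are named were chosen after their values were seen. From each pathway list, up to 4 genes with most reads could be named. The members and lists were chosen with earlier results of these data known.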

Additional observations from a re-analysis of the deposited data

How the results depend on the processing

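The count of E2F peaks and of E2F genes past the adjusted threshold was 0 under every alternative that could be fitted: library totals as scaling, reads in at least 3 libraries, added constants of 0.5 and 5, each library left out, overlapping peaks reduced to the 1 with most reads (chosen after seeing the data), and, for peaks, limma-voom. Limma-voom on gene sums gave unusable weights and is not reported. The labels do not tie the recovered libraries to antibodies. A replicate block by library number, chosen after seeing the data, also gave 0 E2F peaks and 0 E2F genes past the threshold. Over the whole series 3 peaks and 1 gene passed in that fit, none of them E2F. At an unadjusted p under 0.05 it gave 3 E2F peaks, against 2.83% of all peaks, and 1 E2F gene, E2F4, against 3.48% of all genes. In the block fit each E2F gene kept its log2 change and had a smaller standard error. For E2F3 the standard error was 0.44 in place of 0.74 (limma adjusted p = 0.748). Deviations of libraries with the same number correlated across 6314 genes at 0.17, 0.06 and 0.02 for numbers 1, 2 and 3, and control library 3 correlated best with emetine library 2, at 0.05. With library totals as scaling, the log2 change of the gene sum was -0.0445 for E2F1 and -0.00569 for E2F8, in place of 0.03 and 0.06. With each library left out in turn it ranged from -0.77 to 0.70 for E2F1, from -1.06 to 1.87 for E2F6 and from -0.67 to 0.76 for E2F8; for the E2F3 peak from 20490919 it ranged from -2.26 to 0.50. The cause was not tested beyond the reads of the library left out. The log2 changes of E2F2, E2F3, E2F4, E2F5 and E2F7 kept their sign under each alternative, with E2F3 between -0.79 and -0.49 when libraries were left out. Of 247 values under alternatives, 10 reversed, all listed here or within the ranges given. Another 6, for which the interval of the value as reported held no change, fell on the other side of it: E2F4 RNA with total RNA reads as scaling, 3 ratios of totals of E2F1 and 2 of E2F8, each with 1 library left out. A further 4 ratios of totals moved outside their counting interval: E2F1 to 0.641 and E2F2 to 4.17 without control library 2, and E2F2 to 1.05 and E2F7 to 2.91 without control library 3. With overlapping peaks reduced, the E2F3 ratio of totals was 0.682. The peak counts by direction were 30 higher and 17 lower without control library 3, against 23 and 26 with all libraries. In the main fit, the standard errors of the E2F genes were between 0.74 and 2.45 on the log2 scale, with a median of 1.53. They include the difference between antibodies. How much of them comes from depth was not tested.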
